A study of Mus musculus with 6 samples.

Results

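Skeletal muscle genes were followed in bitten ear skin of mice with and without adiponectin, a fat cell hormone. The set held 46 genes given by name, which encode the contractile filaments of striated muscle, the proteins that anchor them, the calcium machinery, the membrane complex and the muscle enzymes of energy supply. All 46 were found by gene symbol among the 15667 genes of the expression table, and all 46 were among the 14306 genes tested. The mice were female littermates of the B6;129-Adipoq tm1Chan/J line aged 7 to 8 weeks, either wild-type (WT, Adipo+/+, n = 3) or homozygous for the null allele in all cells (KO, Adipo-/-, n = 3). Every mouse of both genotypes had carried 10 nymphs of Ixodes scapularis, the black-legged tick, for 48 h, and each library was made from the RNA of 1 punch of ear skin at the bite site. Unbitten skin was not analysed here. The values are reads per 1000000 reads of the library (CPM), and values of 3 libraries are always given in the order of replicates 1, 2 and 3. Gene positions are in mm10.

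Skeletal muscle fibres contract when myosin heads of the thick filaments pull on actin in the thin filaments. Nerve impulses excite the fibre, and a calcium channel of the cell membrane senses the voltage. Calcium then leaves the sarcoplasmic reticulum, and the troponin complex frees actin for binding. Fast and slow fibres carry different genes for many of these subunits, and slow fibres depend more on oxidative metabolism. The mouse ear holds thin auricular muscles beside skin, fat and elastic cartilage. In bulk RNA, fewer muscle fibres and less muscle RNA per fibre cannot be told apart.

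The regions around the start sites are shown for 4 members that span the levels and fibre types described here: Acta1, the skeletal muscle actin, with the highest level per kilobase, the fast myosins Myh1 and Myh4, and the slow myosin Myh7. Sequences are from RefSeq (GRCm38.p6) and run 5′ to 3′ on the strand of the gene, from 250 bases before to 50 bases after the start. Capitals mark letters that match an E box (CANNTG, the motif of MyoD-type factors), a CArG box (serum response factor) or a MEF2 site. Both strands were searched, and the matches printed here do not overlap.
Acta1, chr8:123894726-123895025, minus strand: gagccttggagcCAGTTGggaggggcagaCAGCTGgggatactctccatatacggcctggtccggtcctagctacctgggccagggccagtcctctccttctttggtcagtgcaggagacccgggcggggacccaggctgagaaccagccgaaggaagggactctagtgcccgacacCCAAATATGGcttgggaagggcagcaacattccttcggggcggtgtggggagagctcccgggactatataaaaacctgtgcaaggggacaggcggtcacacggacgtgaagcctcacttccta
Myh1, chr11:67199852-67200151, plus strand: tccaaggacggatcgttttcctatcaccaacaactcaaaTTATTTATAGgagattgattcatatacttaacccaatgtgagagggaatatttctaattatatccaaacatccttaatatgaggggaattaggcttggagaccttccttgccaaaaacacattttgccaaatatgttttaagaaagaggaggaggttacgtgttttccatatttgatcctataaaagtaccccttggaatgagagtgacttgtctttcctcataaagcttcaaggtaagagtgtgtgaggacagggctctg
Myh4, chr11:67237562-67237861, plus strand: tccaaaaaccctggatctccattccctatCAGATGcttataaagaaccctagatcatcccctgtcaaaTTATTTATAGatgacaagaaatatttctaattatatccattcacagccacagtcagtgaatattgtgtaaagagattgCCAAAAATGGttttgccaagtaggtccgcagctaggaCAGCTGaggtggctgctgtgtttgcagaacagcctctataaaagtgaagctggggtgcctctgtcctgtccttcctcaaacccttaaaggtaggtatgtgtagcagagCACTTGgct
Myh7, chr14:54994577-54994876, minus strand: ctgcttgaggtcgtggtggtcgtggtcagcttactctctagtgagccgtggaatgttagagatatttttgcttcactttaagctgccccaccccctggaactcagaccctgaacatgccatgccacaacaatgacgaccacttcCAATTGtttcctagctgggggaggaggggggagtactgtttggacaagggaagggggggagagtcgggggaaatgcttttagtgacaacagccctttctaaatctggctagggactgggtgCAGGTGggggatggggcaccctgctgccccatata
The Acta1 window held a CArG box whose first base lay 73 bases before the start and E boxes at 238 and 221 bases before it. The Myh1 window held a MEF2 site 211 bases before the start and no E box. In the Myh4 window a MEF2 site lay at 182 bases and a CArG box at 104 bases before the start, and 3 E boxes matched. Only E boxes matched in the Myh7 window, of which there were 2. No match marks a bound site, and a missing match says only that these letters are not in the window. Of the 46 members 35 had a window in the RefSeq table and 11 did not, and the 35 genes had 41 windows. A MEF2 site was found in 17.1% of the member windows (7 of 41) and in 3.19% of all 32851 windows. The CArG box was found in 12.2% of the member windows (5 of 41) and in 1.63% of all windows. The E box is short and was found in 82.9% of the member windows and in 72.3% of all windows.

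Muscle RNA was abundant in every punch. The 46 members together made 17328, 18786 and 22229 CPM in WT libraries and 10647, 13301 and 21479 CPM in KO libraries, which was 1.06% to 2.22% of a library. Titin (Ttn), the giant spring of the sarcomere, took the most reads of any member. Per kilobase of transcript the highest mean level in WT skin was that of Acta1 (753 CPM per kb). It was followed by Atp2a1, the calcium pump of fast fibres (335 CPM per kb), and by Myh1, the myosin of type 2X fibres (277 CPM per kb). Titin stood at 73.8 CPM per kb. At the lower end were the slow troponin Tnni1 (3.32 CPM per kb), the dystrophin-complex protein Sgca (3.28 CPM per kb), caveolin Cav3 (4.79 CPM per kb) and Myh7, the slow myosin (4.96 CPM per kb). Tnni2, the fast counterpart of Tnni1, stood at 206 CPM per kb. Of 6 markers of cardiac muscle 4 were not listed in the table, and the other two (Tnnt2 and Myl4) together made 5.31 to 11.4 CPM. Des, Tpm1 and Tpm2 are also used by smooth muscle cells, so their levels may not come from skeletal muscle alone.

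The level of most members differed among the KO libraries as well as between the genotypes. Members were expressed as a percentage of their own mean over the 3 WT libraries. The median member stood at 89.3%, 99.5% and 113% in WT libraries and at 57.9%, 66.1% and 107% in KO libraries. KO replicates 1 and 2 were low, whereas KO replicate 3 lay among the WT libraries. KO replicate 1 was the lowest of the 6 libraries for 31 members and KO replicate 2 for 10. WT replicate 3 was the highest for 23 members and KO replicate 3 for 11. For 37 of 46 members both KO replicates 1 and 2 were below all 3 WT libraries, against 9.60% of all genes tested, and for 33 of these KO replicate 3 was not. That pair of libraries was picked from these member levels, so the count describes the members and is no test of them. Genes of 1 tissue are not independent of each other. Over the members, the SD among the 6 libraries had a median of 0.44 on the log2 scale, and it was 0.21 once the member median of each library had been subtracted. Much of the spread was thus shared by the members.

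**Figure D1:**
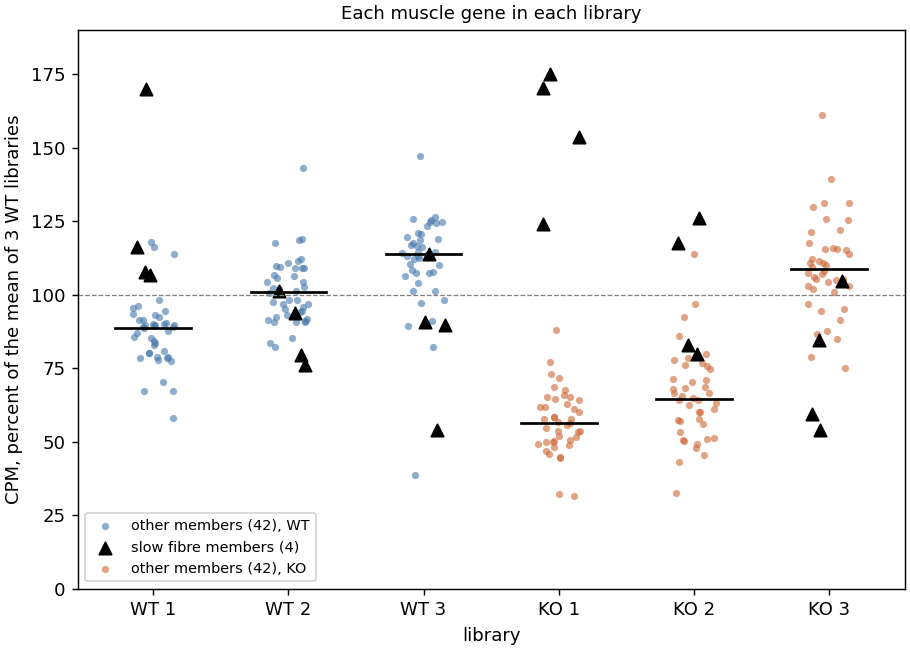
Level of each of the 46 members in each library, as a percentage of its mean over the 3 WT libraries (vertical axis), by library (horizontal axis). Circles are the 42 members outside the slow fibre list, triangles the 4 slow fibre members, and bars the median of the 42, which was 56.5% and 64.6% in KO replicates 1 and 2 and 109% in KO replicate 3.

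**Figure D2:**
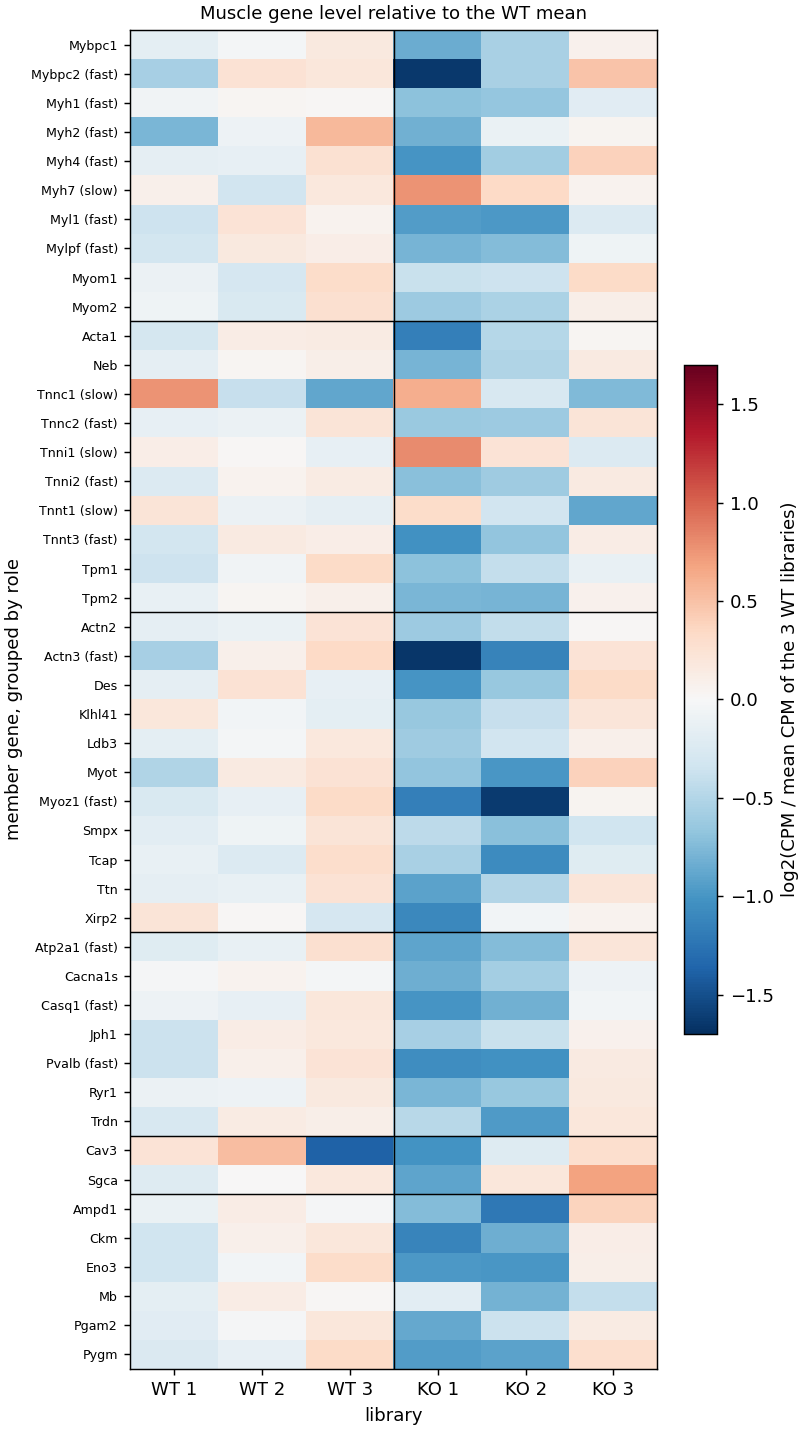
Log2 difference of each member from its mean over the WT libraries, with members in rows grouped by role and the 6 libraries in columns. The columns of KO replicates 1 and 2 are below the WT mean for most rows, and the slow fibre rows are above it in KO replicate 1.

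KO skin was next compared with WT skin for each gene by limma. The mean of 42 of 46 members was lower in KO on the log2 scale (56.7% of all genes tested), with a median log2 fold change of -0.41 over members and -0.032 over all genes. No member passed the Benjamini-Hochberg adjustment, which 0.014% of all genes did, and each adjusted p was at least 0.998. At an unadjusted p below 0.05, 8 of 46 members were lower (1.82% of all genes) and 0 were higher (1.06%). These 8 were Myh1, Myl1, Mb, Cacna1s, Smpx, Tcap, Casq1 and Mylpf. After quantile normalization 5 members were lower at that level. All 3 KO libraries were below all 3 WT libraries for Myh1, Mb, Cacna1s and Smpx (4 of 46, where 4.89% of all genes were), and 0 members were above (2.95%). The 95% confidence interval of the log2 fold change included 0 for 38 members. These counts depended on single libraries. Without KO replicate 3, 35 members were lower at an unadjusted p below 0.05 (2.11% of all genes in that fit) and 1 was higher (0.622%). In the same libraries 37 had both KO libraries below all WT libraries (9.60% of all genes tested), and 2 had both above. The median log2 fold change was -0.69. Without KO replicate 1 the count of lower members was 3 (1.40% of all genes), 1 member had both KO libraries above all WT libraries, and the median was -0.23. The count of lower members was 1 without KO replicate 2 (2.67% of all genes), 2 without WT replicate 2 (1.03%) and 4 without WT replicate 3 (2.77%). Without WT replicate 1 there were 9 members whose KO libraries all lay below the other 2 WT libraries. Separation of the groups is easier with a library fewer. Apart from the 9.60%, its share over all genes was not counted for the reduced sets, so these counts have no background.

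**Figure D3:**
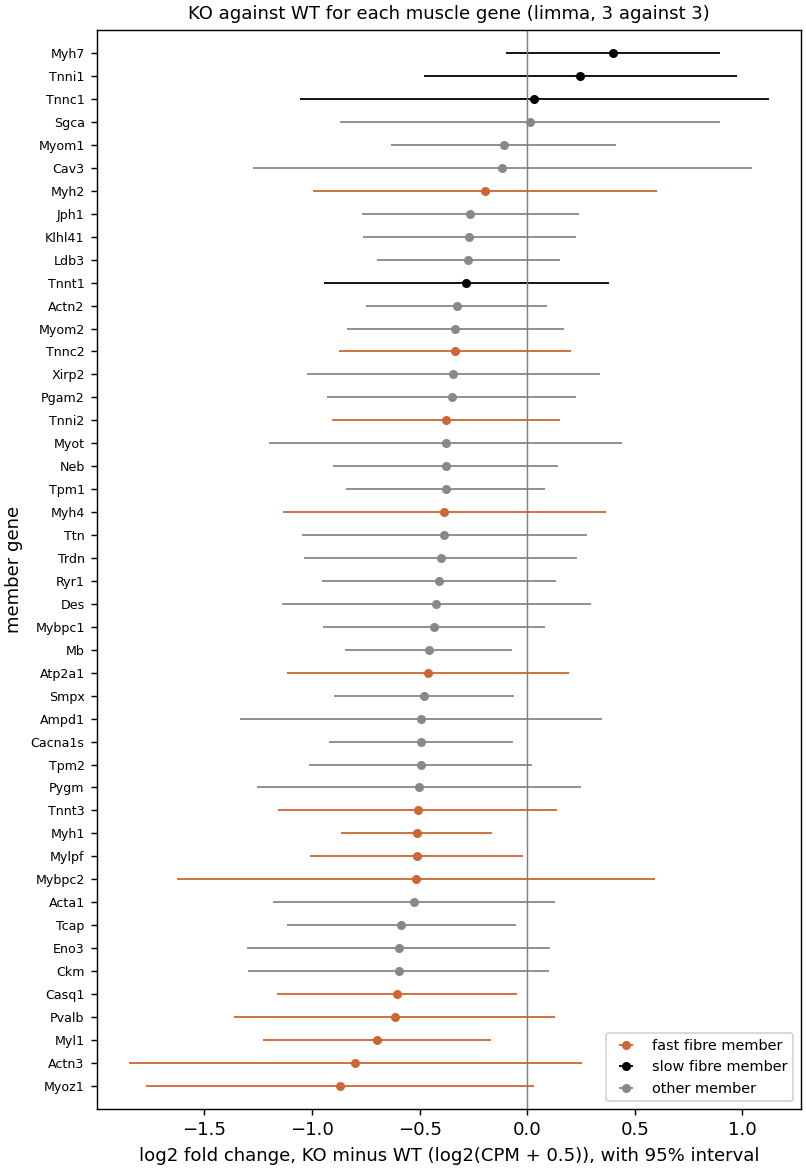
Log2 fold change of each member (KO minus WT, limma on log2(CPM + 0.5), n = 3 per group) with its 95% confidence interval. Members are sorted by fold change and coloured as fast fibre, slow fibre or other members. The points run from -0.87 (Myoz1) to 0.40 (Myh7), and 38 of the 46 intervals cross 0.

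Genes of the thick filament were examined first. Of 10 such members 9 had a lower KO mean (56.7% of all genes), 3 of them at an unadjusted p below 0.05 (1.82%). The median log2 fold change was -0.41. Myh1 (chromosome 11, 67200102 to 67224575, plus strand) was at 1623, 1725 and 1707 CPM in the WT libraries and 1043, 1065 and 1479 CPM in the KO libraries. Its KO libraries were all below its WT libraries, and WT replicates differed little (log2 fold change -0.51, SE 0.15, 95% interval -0.86 to -0.16). Myh4, the type 2B myosin (chromosome 11, 67237812 to 67260447, plus strand), was at 1182, 1196 and 1577 CPM in the WT libraries and 659, 879 and 1729.7 CPM in the KO libraries. KO replicate 3 had the highest Myh4 level of all libraries, and the groups overlapped (log2 fold change -0.38, SE 0.32, 95% interval -1.13 to 0.36). Myh2, the type 2A myosin (chromosome 11, 67171027 to 67197517, plus strand), varied among WT mice, with 132, 214 and 334 CPM in the WT libraries and 128, 209.7 and 234 CPM in the KO libraries. Only KO replicate 1 was below the WT range for Myh2, and then narrowly (log2 fold change -0.20, SE 0.34, 95% interval -0.99 to 0.60). The myosin light chain Myl1 (chromosome 1, 66924296 to 66945056, minus strand) was at 148, 222 and 196 CPM in the WT libraries and 97.9, 96.1 and 160.4 CPM in the KO libraries, with KO replicates 1 and 2 below the WT range (log2 fold change -0.70, SE 0.23, 95% interval -1.23 to -0.17). For Mylpf, the regulatory light chain of fast fibres (chromosome 7, 127208899 to 127214287, plus strand), the levels were 154, 215 and 207 CPM in the WT libraries and 111, 115 and 183 CPM in the KO libraries, and KO replicates 1 and 2 were again the low libraries (log2 fold change -0.51, SE 0.21, 95% interval -1.01 to -0.017). Myosin-binding protein C of fast fibres (Mybpc2, chromosome 7, 44501699 to 44524669, minus strand) was at 34.4, 60.4 and 58.2 CPM in the WT libraries and 16.4, 34.7 and 71.1 CPM in the KO libraries, with KO replicate 1 the lowest and KO replicate 3 the highest library (log2 fold change -0.52, SE 0.48, 95% interval -1.63 to 0.60). Of the remaining thick filament members, Mybpc1 and the M band proteins Myom1 and Myom2 had log2 fold changes of -0.43, -0.11 and -0.33, none at an unadjusted p below 0.05 by limma. Myh1, Myh2 and Myh4 are closely similar neighbours on chromosome 11, and the authors' counting could split reads among them, so the level of each is uncertain. Myh1 also overlaps Myhas, and Mybpc2 overlaps Fam71e1, on the other strand.

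The thin filament followed. Of 10 members 8 had a lower KO mean on the log2 scale (56.7% of all genes), 0 at an unadjusted p below 0.05 (1.82%). In 7 both KO replicates 1 and 2 were below all WT libraries (9.60% of all genes). Acta1 (chromosome 8, 123891758 to 123894775, minus strand), whose window held the CArG box, was at 882, 1188 and 1198 CPM in the WT libraries and 485, 777 and 1112 CPM in the KO libraries. KO replicate 3 lay within the WT range, and the interval of the fold change included 0 (log2 fold change -0.53, SE 0.28, 95% interval -1.18 to 0.13). The fast troponin T gene Tnnt3 (chromosome 7, 142498836 to 142516009, plus strand), which ties the troponin complex to tropomyosin, was at 215, 299 and 290.2 CPM in the WT libraries and 131, 168 and 293 CPM in the KO libraries (log2 fold change -0.51, SE 0.28, 95% interval -1.16 to 0.14). Inhibitory troponin I of fast fibres (Tnni2, chromosome 7, 142441816 to 142444410, plus strand) was at 135, 165 and 175 CPM in the WT libraries and 96.8, 104 and 177 CPM in the KO libraries (log2 fold change -0.38, SE 0.23, 95% interval -0.90 to 0.15). Tnnc2, the calcium sensor of the fast complex (chromosome 2, 164777162 to 164779734, minus strand), was at 132, 135 and 169 CPM in the WT libraries and 93.8, 94.4 and 169 CPM in the KO libraries (log2 fold change -0.34, SE 0.23, 95% interval -0.88 to 0.20). The 3 fast troponins thus had one order of libraries at the low end, with KO replicates 1 and 2 below every WT library and KO replicate 3 at or near the highest level. Tropomyosins Tpm1 and Tpm2 and the giant ruler protein nebulin (Neb) had log2 fold changes of -0.38, -0.50 and -0.38. Acta1 has close paralogs among the actins, and Tnnt3 overlaps Prr33 on the other strand, so reads of each could be shared.

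Z disc, titin and cytoskeleton genes were lower in the KO mean in 11 of 11 members (56.7% of all genes). At an unadjusted p below 0.05, 2 of them were lower (Tcap and Smpx, against 1.82% of all genes). The median log2 fold change was -0.39. Ttn (chromosome 2, 76703984 to 76982547, minus strand) was at 7056, 7196 and 9383 CPM in the WT libraries and 4192, 5599.9 and 9093 CPM in the KO libraries. KO replicate 3 lay near the top of the WT range (log2 fold change -0.39, SE 0.29, 95% interval -1.05 to 0.28). Des, which encodes the intermediate filament desmin (chromosome 1, 75360292 to 75368579, plus strand), was at 228, 302 and 230.5 CPM in the WT libraries and 127, 163 and 319 CPM in the KO libraries. The highest Des level was that of KO replicate 3, and the lowest that of KO replicate 1 (log2 fold change -0.42, SE 0.31, 95% interval -1.14 to 0.29). Alpha-actinin 3 of fast fibres (Actn3, chromosome 19, 4861216 to 4877909, minus strand) was at 56.2, 88.7 and 105 CPM in the WT libraries and 26.4, 37.8 and 98.1 CPM in the KO libraries (log2 fold change -0.80, SE 0.45, 95% interval -1.85 to 0.25). Myoz1, a calcineurin-binding protein of the fast fibre Z disc (chromosome 14, 20649102 to 20656540, minus strand), was at 29.5, 32.1 and 44.3 CPM in the WT libraries and 15.8, 11.5 and 36.4 CPM in the KO libraries and had the most negative log2 fold change of all members (log2 fold change -0.87, SE 0.39, 95% interval -1.77 to 0.031). For both Actn3 and Myoz1 KO replicate 3 was within the WT range. Smpx, a small protein of striated muscle (chromosome X, 157698973 to 157752591, plus strand), was at 19.1, 20.5 and 25.1 CPM in the WT libraries and 15.8, 13.2 and 17.0 CPM in the KO libraries. All KO libraries were below the lowest WT library for Smpx, KO replicate 3 included (log2 fold change -0.48, SE 0.18, 95% interval -0.90 to -0.060). Titin cap (Tcap) had a log2 fold change of -0.59 (95% interval -1.12 to -0.054). Actn2, Myot, Ldb3, Xirp2 and Klhl41 lay between -0.38 and -0.27.

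In calcium handling and excitation-contraction coupling, 7 of 7 members had a lower KO mean (56.7% of all genes). At an unadjusted p below 0.05, 2 of them were lower (Cacna1s and Casq1, against 1.82% of all genes). In all 7 KO replicates 1 and 2 were below every WT library (9.60% of all genes). The voltage sensor of the calcium channel, Cacna1s (chromosome 1, 136052811 to 136119822, plus strand), was at 76.7, 81.6 and 76.0 CPM in the WT libraries and 44.0, 52.1 and 73.7 CPM in the KO libraries. WT levels were close together, and even KO replicate 3 was just below the lowest of them (log2 fold change -0.49, SE 0.18, 95% interval -0.92 to -0.067). Ryr1, the release channel of the sarcoplasmic reticulum (chromosome 7, 29003340 to 29125151, minus strand), was at 263, 265 and 316 CPM in the WT libraries and 164, 181 and 316 CPM in the KO libraries (log2 fold change -0.41, SE 0.23, 95% interval -0.95 to 0.13). KO replicate 3 and WT replicate 3 could hardly be told apart for Ryr1. Atp2a1, which pumps calcium back (chromosome 7, 126445860 to 126463073, minus strand), was at 1014, 1069 and 1410.1 CPM in the WT libraries and 623, 699 and 1343 CPM in the KO libraries (log2 fold change -0.46, SE 0.28, 95% interval -1.12 to 0.19). Calsequestrin 1 (Casq1, chromosome 1, 172209894 to 172219895, minus strand), the calcium store of the reticulum, was at 65.6, 63.1 and 79.6 CPM in the WT libraries and 34.7, 39.5 and 67.3 CPM in the KO libraries (log2 fold change -0.61, SE 0.24, 95% interval -1.16 to -0.048). Pvalb, the calcium buffer parvalbumin of fast fibres (chromosome 15, 78191112 to 78206400, minus strand), was at 87.6, 119.8 and 133 CPM in the WT libraries and 54.6, 55.8 and 126 CPM in the KO libraries. KO replicates 1 and 2 were nearly equal for Pvalb and well under the lowest WT library (log2 fold change -0.62, SE 0.32, 95% interval -1.36 to 0.13). Triadin (Trdn) and junctophilin 1 (Jph1), which hold the membranes of the triad together, had log2 fold changes of -0.40 and -0.27. Atp2a1 overlaps Rabep2 on the other strand by 48 bases.

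Energy supply genes were lower in the KO mean in 6 of 6 members (56.7% of all genes), with a median log2 fold change of -0.50. In all 6 KO replicates 1 and 2 were below every WT library (9.60% of all genes). Ckm, the muscle creatine kinase that buffers ATP (chromosome 7, 19411094 to 19421583, plus strand), was at 219, 297 and 319 CPM in the WT libraries and 128, 156 and 301 CPM in the KO libraries (log2 fold change -0.60, SE 0.30, 95% interval -1.30 to 0.10). Myoglobin (Mb, chromosome 15, 77015487 to 77050668, minus strand), the oxygen store of muscle fibres, was at 122, 150.1 and 139 CPM in the WT libraries and 121, 78.5 and 103 CPM in the KO libraries. For Mb the low library was KO replicate 2, while KO replicate 1 was only just below the lowest WT library (log2 fold change -0.46, SE 0.17, 95% interval -0.85 to -0.069). Mb thus did not have the library order of Ckm, in which KO replicate 1 was lowest. Glycogen phosphorylase (Pygm), the glycolytic enzymes Pgam2 and Eno3 and the AMP deaminase Ampd1 had log2 fold changes of -0.50, -0.35, -0.60 and -0.49, none at an unadjusted p below 0.05 by limma. Ckm overlaps A930016O22Rik and Mb overlaps Apol6, each on the other strand. The 2 membrane members did not have this library pattern. Cav3 ranged from 2.14 to 7.93 CPM in WT and from 2.73 to 6.76 CPM in KO libraries. Sgca ranged from 4.84 to 6.43 CPM in WT and from 3.03 to 9.11 CPM in KO libraries. Their log2 fold changes were -0.12 (95% confidence interval -1.27 to 1.04) and 0.013 (-0.87 to 0.90), and at 13 to 39 implied reads per library counting error was large.

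Whether fast and slow fibre genes moved alike was examined last. All 14 fast members had a lower KO mean on the log2 scale (median log2 fold change -0.51), whereas 1 of 4 slow members did (median 0.14). Over all genes 56.7% had a lower KO mean on that scale. In CPM the slow troponin Tnnc1 also had a slightly lower mean in KO (6.33 CPM, against 6.41 CPM in WT). The slow list was short. Mybpc1, named the slow type of myosin-binding protein C, was on neither list and was lower in KO (log2 fold change -0.43). No slow member was at an unadjusted p below 0.05. Myh7, the slow and cardiac myosin (chromosome 14, 54970686 to 54994626, minus strand), was at 32.9, 24.6 and 35.1 CPM in the WT libraries and 52.6, 38.9 and 32.3 CPM in the KO libraries. KO replicates 1 and 2, the libraries with the least fast muscle RNA, were above all WT libraries for Myh7, and KO replicate 3 was within them (log2 fold change 0.40, SE 0.21, 95% interval -0.096 to 0.90). Slow troponin T (Tnnt1, chromosome 7, 4504570 to 4515975, minus strand) was at 29.0, 23.4 and 22.4 CPM in the WT libraries and 30.9, 19.9 and 13.5 CPM in the KO libraries. KO replicate 1 was highest and KO replicate 3 lowest (log2 fold change -0.28, SE 0.29, 95% interval -0.94 to 0.38). Tnni1, the slow troponin I (chromosome 1, 135799421 to 135810989, plus strand), was at 4.11, 3.87 and 3.46 CPM in the WT libraries and 6.68, 4.48 and 3.23 CPM in the KO libraries (log2 fold change 0.25, SE 0.31, 95% interval -0.48 to 0.97). Tnnc1, the troponin C of slow and cardiac muscle (chromosome 14, 31208312 to 31211729, plus strand), was at 10.9, 4.88 and 3.46 CPM in the WT libraries and 9.86, 5.32 and 3.82 CPM in the KO libraries, with WT replicate 1 and KO replicate 1 well above the rest (log2 fold change 0.034, SE 0.47, 95% interval -1.05 to 1.12). Tnni1 rested on 11 to 44 implied reads per library and Tnnc1 on 13 to 65, so their levels carry large counting error. In KO replicate 1 all 4 slow members were above their WT mean, at 124% to 175% of it, while the 14 fast members were at 31.7% to 64.5%. In KO replicate 3 the order was turned round, with a slow median of 72.1% and a fast median of 110%.

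Ratios within a library do not depend on how libraries are scaled. The mean log2 level of the fast members minus that of the slow members was 3.42, 4.22 and 4.45 in WT libraries (4.03 ± 0.54, SD, n = 3) and 2.42, 3.25 and 4.54 in KO libraries (3.40 ± 1.07, SD, n = 3). The group difference of -0.63 was smaller than the SD of the KO libraries, and the groups overlapped. Without KO replicate 3 the difference was -1.20, and without KO replicate 1 it was -0.14. It was -0.42 without WT replicate 3. Myh4 over Myh7 was 35.9, 48.6 and 44.9 in CPM in WT libraries and 12.5, 22.6 and 53.5 in KO libraries. Tnnt3 over Tnnt1 was 7.40, 12.8 and 12.9 in WT and 4.25, 8.42 and 21.7 in KO. Tnni2 over Tnni1 was 32.8, 42.8 and 50.4 in WT and 14.5, 23.1 and 54.6 in KO. KO replicate 3 had the highest and KO replicate 1 the lowest value of all 6 libraries in these 3 ratios. Myh1 over Myh7 did not follow this order. It was 49.3, 70.1 and 48.6 in WT and 19.8, 27.4 and 45.8 in KO, so that all KO libraries were below all WT libraries. Myh2 over Myh7 overlapped between the groups, at 4.01, 8.72 and 9.50 in WT and 2.44, 5.39 and 7.23 in KO. Tnnc2 over Tnnc1 differed more among WT libraries than between the group means, at 12.1, 27.7 and 48.9 in WT and 9.51, 17.7 and 44.2 in KO. Within the 4 adult myosins, per kilobase, Myh1 made 51.8% ± 4.55 of their sum in WT and 48.7% ± 6.44 in KO (SD, n = 3). Myh4 made 40.1%, 38.1% and 43.4% in WT libraries and 35.3%, 40.4% and 50.1% in KO libraries. Myh7 made 1.08%, 0.757% and 0.934% in WT libraries and 2.72%, 1.73% and 0.903% in KO libraries. The shares of Myh1 and Myh4 overlapped between the groups, while the Myh7 share of KO replicates 1 and 2 was above that of every WT library.

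**Figure D4:**
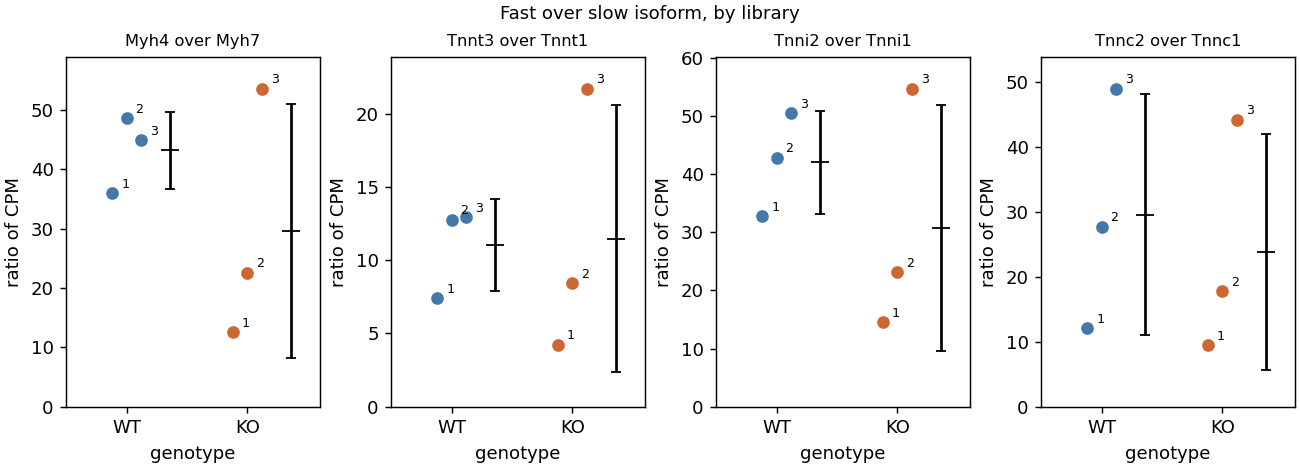
Ratio of a fast to a slow gene of the same subunit in each library (vertical axes, linear, from 0), by genotype. Points are single libraries labelled by replicate number and the bars beside them the group mean ± SD (n = 3). KO replicate 3 is the highest and KO replicate 1 the lowest for Myh4 over Myh7, Tnnt3 over Tnnt1 and Tnni2 over Tnni1.

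A further list of 67 genes of skeletal muscle, 66 of which were tested, was read in the same way. The KO mean was lower for 60 of the 66 (56.7% of all genes), with a median log2 fold change of -0.32. At an unadjusted p below 0.05, 6 were lower (1.82% of all genes) and 0 higher (1.06%). In 6 all KO libraries were below all WT libraries (4.89% of all genes), and in 32 of 67 both KO replicates 1 and 2 were (9.60%). Myoz2, the calsarcin of slow and cardiac muscle, was at 14.0, 15.1 and 19.8 CPM in the WT libraries and 10.5, 8.13 and 8.52 CPM in the KO libraries (log2 fold change -0.81, SE 0.21, 95% interval -1.29 to -0.32). Myh8, the perinatal myosin, was at 6.82, 3.88 and 5.14 CPM in the WT libraries and 1.37, 3.10 and 1.77 CPM in the KO libraries (log2 fold change -1.19, SE 0.36, 95% interval -2.03 to -0.34). Both had KO libraries that were all under their WT libraries. Myh8 rested on few reads, since 3 reads corresponded to 0.455 to 0.881 CPM, so its counting error was large. It also lies beside the similar myosins of chromosome 11, and reads could be split among them. Phka1, a subunit of muscle phosphorylase kinase, was at 24.7, 33.2 and 31.0 CPM in the WT libraries and 15.0, 18.5 and 23.2 CPM in the KO libraries (log2 fold change -0.64, SE 0.20, 95% interval -1.11 to -0.18). Jsrp1, a protein of the junctional sarcoplasmic reticulum, was at 13.3, 14.4 and 16.3 CPM in the WT libraries and 6.68, 6.45 and 12.0 CPM in the KO libraries (log2 fold change -0.82, SE 0.27, 95% interval -1.45 to -0.20). No gene of the list passed the adjustment (adjusted p of at least 0.998). Other genes of slow fibres on the list, chosen after their values were seen, did not go one way, with log2 fold changes of 0.48 for the light chain Myl2, -0.43 for the light chain Myl3 and -0.11 for calsequestrin 2 (Casq2). Their groups overlapped. When the mean log2 level of the 66 genes was put in the fit as a measure of muscle content, the member median log2 fold change was 0.068 and 18 of 46 members were below 0. In that fit 1 of 46 members was lower at an unadjusted p below 0.05 and 1 was higher, against 1.82% and 1.36% of all genes. This measure was itself low in KO replicates 1 and 2 (3.61 and 3.82, against 4.16 to 4.33 in the other libraries). It takes out muscle content by its construction, so the fit is no test of why the members differed.

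**Figure D5:**
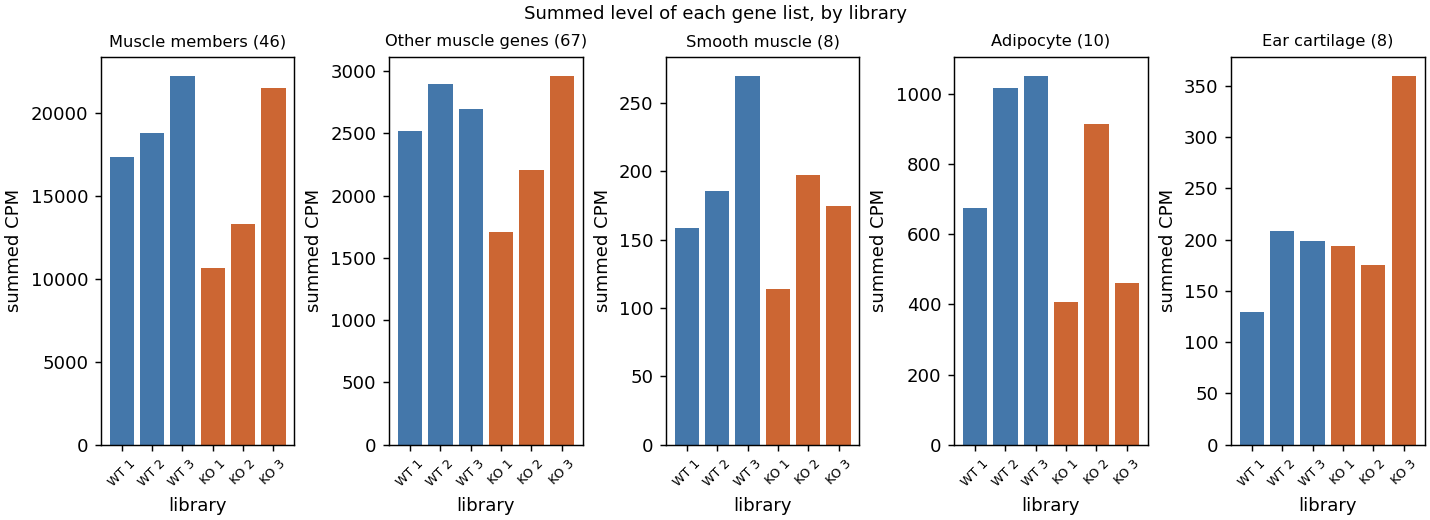
Summed CPM (vertical axes, from 0) of the 46 members, the 67 other muscle genes and the smooth muscle, adipocyte and ear cartilage markers in each library (bars, WT blue, KO orange). The members and the other muscle genes are lowest in KO replicate 1, adipocyte markers are low in KO replicates 1 and 3, and cartilage markers are highest in KO replicate 3.

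Other tissues of the punch also differed among libraries. Summed over 10 genes, adipocyte markers were at 676, 1017 and 1053 CPM in the WT mice and 406, 914 and 461 CPM in the KO mice, with none at 0 in any library. Of these 10, 3 were lower in KO at an unadjusted p below 0.05 (1.82% of all genes), and the median log2 fold change of the 10 was -0.79. Adipocyte RNA was thus low in KO replicates 1 and 3, while muscle RNA was low in KO replicates 1 and 2. Smooth muscle markers (8 genes) were at 158, 186 and 270 CPM in the WT mice and 114, 197 and 175 CPM in the KO mice. By this sum they were lowest in KO replicate 1, like the skeletal muscle genes, but KO replicate 2 was within the WT range. On the log2 scale the KO mean was lower for all 7 smooth muscle genes tested (56.7% of all genes). Their median log2 fold change was -0.48, and 0 were lower at an unadjusted p below 0.05 (1.82%). Ear cartilage markers (8 of 9 genes listed) were at 129, 209 and 199 CPM in the WT mice and 194, 175 and 360 CPM in the KO mice. On the log2 scale the KO mean was lower for 0 of the 8 cartilage genes (56.7% of all genes), with a median log2 fold change of 0.58. At an unadjusted p below 0.05, 1 of them was higher (1.06% of all genes). Hair follicle markers (12 genes) ran from 11.1 and 14.4 CPM in WT replicates 1 and 2, where 8 and 5 of them were at 0, to 22684 CPM in WT replicate 3. In KO skin they were at 1819, 9089 and 930.4 CPM. Hair follicle RNA thus differed widely within each genotype. The KO mean was lower for 0 of the 12 genes on the log2 scale (56.7% of all genes). Their median log2 fold change was 2.89, and 0 were higher at an unadjusted p below 0.05 (1.06%). Markers of satellite cells (6 genes), the stem cells of muscle, were at 9.68, 13.2 and 36.9 CPM in the WT mice and 11.1, 16.5 and 11.2 CPM in the KO mice. Markers of myelinating Schwann cells (6 genes) spanned 221 to 373 CPM, of neutrophils (6 genes) 31.3 to 556 CPM and of red blood cells (5 genes) 93.1 to 7512 CPM over all libraries. The part of these tissues in the muscle result was not tested.

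The libraries held 4131349 to 6065569 implied reads in WT and 3403676 to 6591523 in KO, and the lowest muscle levels were in both the deepest library (KO replicate 1) and a shallow one (KO replicate 2). Adipoq, the targeted gene, was at 30.5, 63.7 and 49.6 CPM in the WT mice and at 0, 0.560 and 0 CPM in the KO mice, so all labels matched. A count of 3 reads corresponded to 0.455 to 0.881 CPM, below the level of every member in every library.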

How the data were processed

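RNA from bitten ear skin of 3 WT and 3 KO mice was sequenced. The authors aligned reads with STAR (2.7.3a) to mm10, quantified genes in Partek Flow by expectation-maximization and deposited CPM (reads per 1000000 of the library total, offset 0.0001). Use of read strand, and the authors' model for these libraries, are not given in the sources used here. The offset was subtracted. Depth was estimated from the CPM of 1 read: 91.8% to 92.8% of values under 20 reads lay within 0.1 of a whole read. These reads gave the depths, floors and read numbers stated and 1 alternative fit. They cover counting error only.

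The 14306 genes averaging 1 CPM or more (1361 were left out) were compared on log2(CPM + 0.5), which understates changes of low genes, by limma (3.58.1, R 4.3.3, mean-variance trend, two-sided), with Benjamini-Hochberg adjustment over all genes tested. The step was run on simulated data in which genes varied independently. Such data do not cover the spread that genes of a tissue share here. With 3 against 3 libraries an exact permutation test cannot go below 0.1. Lengths per kilobase are GENCODE M21 transcripts. Positions are those of the deposited table (mm10), with the listed ends lowered by 1. Values in every library were given for fast and slow members, Ckm, Acta1, Mb, Ttn, Ryr1, Des and the 5 members of smallest p, and for the 4 other muscle genes of smallest p. Members and lists were chosen with earlier results of these data known. Alternatives were other pseudocounts, filters, scalings and fits, a muscle content covariate, a replicate block and leaving out each library.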

Additional observations from a re-analysis of the deposited data

How the results depend on the processing

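Of 467 values of the 26 members named by the rule, each under 1 of 18 alternatives, 443 kept their direction and 24 changed it. All 467 stayed above an adjusted p of 0.05, and the smallest was 0.817. At an unadjusted p of 0.05 the calls were less stable. Among the 26, 7 members were called at that level in the main fit, and 39 of their 126 values were no longer below it. Tcap, also called in the main fit, was not among the 26, so its call was not followed. Of 341 values of the other 19 members, 30 were below it, 25 of these with the replicate block or without KO replicate 3. No member passed the adjustment under any alternative. The count of members lower at an unadjusted p below 0.05 (8 as reported) was 5 after quantile normalization, 3 without the mean-variance trend, 1 with the muscle content covariate and 1 to 35 when 1 library was left out. The count higher (0) was 1 with array weights, 1 with the covariate and 0 to 1 with a library left out. Members with all KO libraries below all WT libraries (4) numbered 4 to 37, and above (0) 0 to 2, with a library left out. Separation is easier with a library fewer. The member median (-0.41) was 0.068 with the covariate, where 18 members were below 0, and -0.69 to -0.23 with a library left out, where 38 to 43 members were. The fast minus slow difference (-0.63) was -1.20 to -0.14, and for troponins alone (-0.41) it was -0.96 to 0.075. With the covariate, which takes out muscle content by its construction, 17 named members changed direction: Actn3 0.19, Myh2 0.17, Myh4 0.30, Myh7 -0.014, Tnnt3 0.12, Tnni1 -0.21, Tnni2 0.098, Tnnc1 -0.58, Tnnc2 0.096, Atp2a1 0.094, Pvalb 0.050, Mybpc2 0.57, Ckm 0.066, Acta1 0.084, Ttn 0.15, Ryr1 0.070 and Des 0.34. With a library left out, Myh2 ran from -0.53 to 0.13, Tnnt1 from -0.58 to 0.0019, Tnnc1 from -0.32 to 0.47 and Mybpc2 from -1.03 to 0.0081. The causes of the other changes were not tested. Over all genes, calls at an unadjusted p below 0.05 were 260 lower and 152 higher, 215 and 210 after median-of-ratios scaling, and 193 and 232 after quantile normalization.

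The labels number replicates alike in both groups and state no pairing. Over all genes, deviations of same-numbered libraries from their group mean correlated at 0.38, -0.31 and -0.22. With 3 libraries per group such correlations cannot show whether the mice were paired. Summed member CPM and the fast minus slow difference rose with replicate number in both WT and KO. With a replicate block 26 members were lower at an unadjusted p below 0.05 (2.89% of all genes, against 1.82% without it). Tnni1 fell under the filter at a mean of 5 CPM. With 3 mice per group and 3403676 to 6591523 reads a library, the intervals of 38 of 46 members included 0, and Tnni1 and Tnnc1 rested on few reads.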
